A study of Mus musculus with 3 samples.

Results

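Mitochondrial ribosomal protein genes were examined for nearby HIF1α peaks in the embryonic mouse heart. The genes were chosen by symbol, as RefSeq protein-coding genes named Mrpl or Mrps followed by a digit, which gave 78 of 21775 nuclear protein-coding genes. Of these, 49 carry the Mrpl name of the large ribosomal subunit and 29 the Mrps name of the small subunit. The gene family was picked for description with the peak positions and scores of this data set already known. Its counts are therefore given as a description, beside the same counts over all other protein-coding genes, and no test was made.

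The tissue was the heart of wild-type Black-Swiss mouse embryos at E12.5, a stage counted in days of gestation, and all libraries shared this genotype, strain and stage. There were 2 chromatin immunoprecipitation libraries, made with a rabbit antibody against HIF1α, and 1 input library of sheared chromatin without antibody. The authors called peaks in each pulldown against that same input and merged the calls into the 17289 peaks deposited, in mm10 coordinates. Each peak has a whole-number score from 2 to 3315, of which 56.0% are the lowest score of 2, and a name that ends in the number of merged calls. A peak of 2 calls merges 2 called windows, and 1989 peaks (11.5%) are of this kind. The list does not show whether these windows came from both pulldowns or from the same one, so a peak of 2 calls is not taken as replicated. It also does not mark which pulldown gave a single call and holds no values per library, so replicate error cannot be given for any value and the read depth is unknown. Whole hearts hold several cell types, and a peak list cannot be checked against their marker genes.

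The mitochondrial ribosome translates the messages of the mitochondrial genome, all of which encode subunits of the respiratory chain and the ATP synthase. Its RNAs come from the mitochondrial genome, but its proteins are encoded in the nucleus, translated in the cytosol and imported. HIF1α, which is stabilised when oxygen is low, binds DNA with ARNT at a short core sequence, ACGTG or GCGTG, and is best known for raising glycolysis and lowering the use of oxygen by mitochondria. Gene names follow the older subunit assignment. Structures place the products of Mrps30 and Mrps18a in the large subunit, and the product of Mrps36 is a component of the 2-oxoglutarate dehydrogenase complex, but all 3 were kept under their names here.

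Peaks lay near these genes more often than near other protein-coding genes. At a window of 1 kb around either gene end, 38 of the 78 genes (48.7%, exact 95% Clopper-Pearson interval 37.2 to 60.3%) had the centre of a peak, against 16.1% of 21697 other protein-coding genes. Within 5 kb the count was 42 of 78 (53.8%, interval 42.2 to 65.2%), against 23.9% of other genes. The step from 1 kb to 5 kb therefore added only 4 genes. Within 50 kb a peak was found for 65 genes (83.3%, interval 73.2 to 90.8%), against 63.5% of other genes. Intervals cover counting error only, and genes are not biological replicates. They are meant as a scale for the size of the groups.

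The same order was seen with peaks of 2 merged calls, though for fewer genes. Within 1 kb such a peak was present at 20 of the 78 genes (25.6%, interval 16.4 to 36.8%), against 5.47% of other genes. Within 5 kb the count was 23 (29.5%, interval 19.7 to 40.9%), against 7.65% of other genes. At 50 kb it was 38 genes (48.7%), against 20.9%. Among the 42 genes with any peak within 5 kb, 19 had peaks of 1 call alone. The remaining 23 (54.8%) had one of 2 calls, against 32.0% of the 5178 other genes with a peak within 5 kb.

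**Figure D1:**
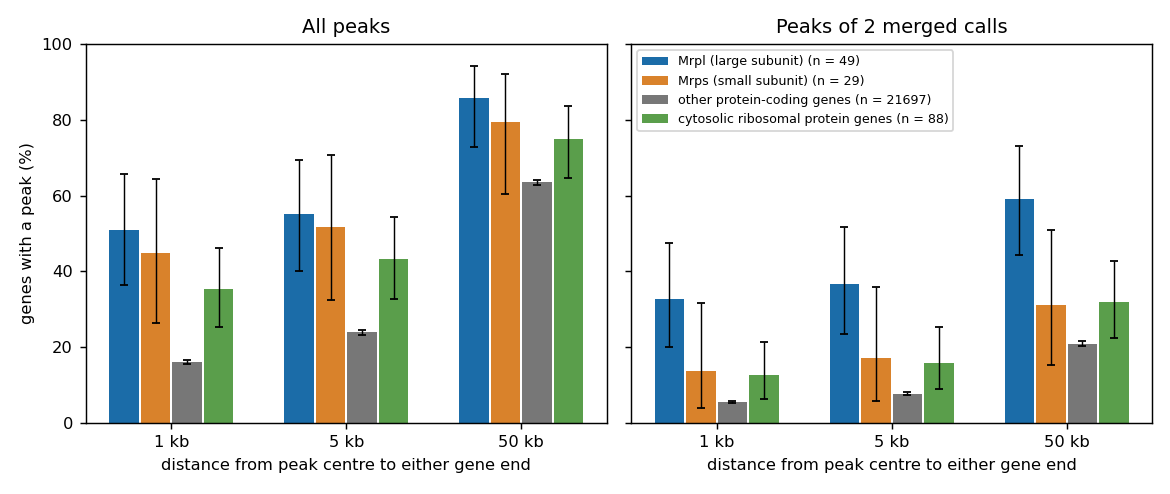
Bars give the percentage of genes with a peak centre within 1, 5 and 50 kb of either gene end, for all peaks (left) and peaks of 2 merged calls (right), and error bars are exact 95% Clopper-Pearson intervals over genes. At 5 kb and with all peaks, the large subunit genes stood at 55.1%, the small subunit genes at 51.7%, cytosolic ribosomal protein genes at 43.2% and other protein-coding genes at 23.9%.

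Genes of the large and the small subunit had close shares with all peaks and shares further apart with peaks of 2 calls. Within 5 kb, 27 of 49 large subunit genes (55.1%, interval 40.2 to 69.3%) and 15 of 29 small subunit genes (51.7%, interval 32.5 to 70.6%) had a peak. With peaks of 2 calls the counts were 18 of 49 (36.7%, interval 23.4 to 51.7%) and 5 of 29 (17.2%, interval 5.85 to 35.8%). The intervals of these shares overlap, and the difference was not tested. Scores followed the same order. Of the 31 peaks within 5 kb of large subunit genes, 11 had a score of 5 or more (35.5%), while 1 of the 16 peaks near small subunit genes did (6.25%). Over peaks within 5 kb of other genes that share was 19.6%.

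The nearest peaks were very close to the gene ends. In 25 of the 78 genes (32.1%) a peak centre lay within 100 bp of an end, against 6.26% of other genes. The median distance to the nearest peak, taken over every gene of each set whether near a peak or not, was 1.27 kb for the mitochondrial ribosomal genes. For other protein-coding genes it was 28.4 kb. It was 0.722 kb for large and 4.92 kb for small subunit genes. The mitochondrial ribosomal genes are also shorter, with a median length of 7.69 kb against 17.3 kb.

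**Figure D2:**
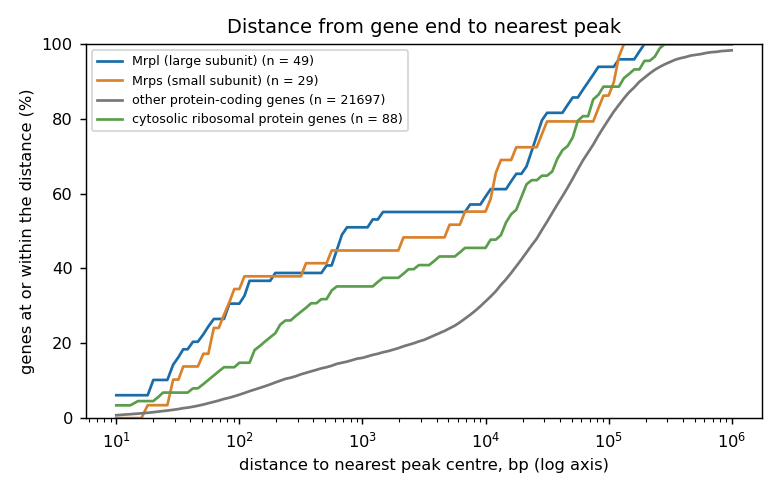
Each line gives the percentage of genes whose nearest peak centre lies at or within the distance on the horizontal log axis, in bp from either gene end. The curves of both subunits rise early, to 51.0% and 44.8% of genes at 1 kb, and change little up to 5 kb, while other genes reach 16.1% at 1 kb.

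The highest scores belonged to the large subunit. Mrpl54 encodes a protein of the large subunit and carried a peak scored 17, from 2 calls, centred 20 bp inside the end of the gene (chr10:81266839-81266973). This peak lies 29 bp from the end of the neighbouring gene Apba3. Mrpl45, whose product anchors the ribosome to the inner membrane, carried a peak scored 12, also from 2 calls (chr11:97315589-97315702). Its centre is 722 bp inside the annotated span of the gene but 71 bp before the start listed in the promoter table. These are the only peaks within 5 kb of the family that score 10 or more. They make up 4.26% of its 47 peaks, against 3.20% of peaks within 5 kb of other genes.

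Sequences from RefSeq (GRCm38.p6, the same build as mm10) show what lies under the strongest peaks of 2 calls. A promoter sequence, from 250 bp before to 50 bp after a listed start, was matched for 69 of the 78 genes. The 9 genes not matched were Mrps28, Mrpl54, Mrpl19, Mrps34, Mrps35, Mrpl13, Mrpl38, Mrpl4 and Mrpl15. The stretches below are the part of each peak that lies before the listed start, written 5′ to 3′ on the strand of the gene, with ACGTG and GCGTG on either strand in capitals. At Mrpl49 the 10 bases of the peak farthest upstream, which would come before the first base printed, lie beyond the edge of the promoter table and are not shown. They come from the highest-scoring peaks of 2 calls within 1 kb that have such a sequence: Mrpl45 (plus strand), Mrpl49 (minus strand, chr19:6057882-6058005), Mrpl48 (minus strand, chr7:100607623-100607737) and Mrpl21 (plus strand, chr19:3282943-3283041).
Mrpl45: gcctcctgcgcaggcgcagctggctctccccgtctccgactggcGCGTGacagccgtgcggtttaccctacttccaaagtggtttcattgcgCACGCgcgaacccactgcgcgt
Mrpl49: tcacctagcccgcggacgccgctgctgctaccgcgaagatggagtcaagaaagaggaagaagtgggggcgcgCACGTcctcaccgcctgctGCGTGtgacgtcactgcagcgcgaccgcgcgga
Mrpl48: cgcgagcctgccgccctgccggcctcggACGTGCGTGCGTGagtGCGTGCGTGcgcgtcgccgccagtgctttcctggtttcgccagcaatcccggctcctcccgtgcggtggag
Mrpl21: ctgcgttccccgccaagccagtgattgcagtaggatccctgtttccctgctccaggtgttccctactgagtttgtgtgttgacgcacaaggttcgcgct

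The stretches differ in how often they hold the core. The Mrpl45 and Mrpl49 stretches hold 2 matches each, the Mrpl48 stretch holds 5 overlapping or adjacent ones, and the Mrpl21 stretch holds none. For contrast, the next stretches are the 100 bases before the start of the members with a promoter sequence that lie farthest from any peak: Mrpl37 (187 kb, minus strand, chr4:107066867-107066966) and Mrpl50 (167 kb, minus strand, chr4:49521084-49521183). Neither stretch of 100 bases holds the core. The core is nevertheless present farther from the start, since the whole window of 300 bases has 2 matches at Mrpl37, both from 1 palindrome CACGTG, and 1 at Mrpl50.
Mrpl37: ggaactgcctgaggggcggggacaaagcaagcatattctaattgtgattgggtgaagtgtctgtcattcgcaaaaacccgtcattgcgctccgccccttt
Mrpl50: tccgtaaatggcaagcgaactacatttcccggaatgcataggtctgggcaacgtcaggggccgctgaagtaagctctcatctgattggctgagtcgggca

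Among the large subunit genes, other peaks of 2 calls scored 3 to 7. Mrpl49 shares a promoter region with Fau, which encodes a ubiquitin-like protein fused to a protein of the small cytosolic subunit, and its peak scored 6 at 193 bp from Mrpl49 and 1 bp from Fau. Mrpl48 had a peak of score 6, 53 bp before a listed start and 100 bp from Rab6a, a gene of vesicle transport. Mrpl21 had one of score 5 at 3 bp from the gene end and 16 bp from Ighmbp2, a helicase gene. A score of 4 was given to the peaks of Mrpl30 (6 bp), Mrpl58 (20 bp), Mrpl17 (28 bp), Mrpl39 (29 bp), Mrpl43 (55 bp), Mrpl3 (59 bp), Mrpl14 (492 bp) and Mrpl20 (653 bp). Mrpl58 encodes a peptidyl-tRNA hydrolase that releases stalled chains and is built into the ribosome. Peaks of 2 calls with a score of 3 lay at Mrpl53 (30 bp), Mrpl16 (117 bp) and Mrpl11 (223 bp). Mrpl11 also had a peak of 1 call at 112 bp with the lowest score, 2. Over all 47 peaks within 5 kb of the family, 2 had the score of 2 (4.26%), against 23.0% of peaks within 5 kb of other genes.

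Large subunit genes marked within 1 kb by peaks of 1 call alone numbered 9. Mrpl44, whose product resembles an RNase III and which is linked to inherited cardiomyopathy in people, had the highest score among them, 8 at 33 bp. Mrpl23 had a peak of score 7, 615 bp inside the gene and 50 bp after its listed start, and a further one of score 5 at 3033 bp. Mrpl47 had 2 peaks of score 5, at 105 and 235 bp, in the space between it and Ndufb5. Mrpl42 (2 bp) and Mrpl52 (49 bp) had peaks of score 4. Mrpl19 (39 bp), Mrpl9 (78 bp, with a further peak at 324 bp), Mrpl13 (80 bp) and Mrpl1 (608 bp) had peaks of score 3. In Mrpl1 the centre is 9 bp before the listed start.

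Peaks of the small subunit genes had lower scores than those of the large subunit genes. Their median within 5 kb was 3.00, as near other genes, and 6.25% had the lowest score of 2, against 23.0% near other genes. The 4 genes with a peak of 2 calls within 1 kb were Mrps33 (29 bp), Mrps15 (35 bp), Mrps17 (83 bp) and Mrps26 (86 bp), and each peak scored 3. The other 9 genes within 1 kb had peaks of 1 call. Mrps28 had a pair of peaks, of score 4 at 17 bp and of score 6 at 257 bp, the latter being the highest score in the subunit within 5 kb. Score 4 was found at Mrps35 (59 bp), Mrps7 (72 bp) and Mrps18c (102 bp). Score 3 was found at Mrps27 (27 bp), which encodes a pentatricopeptide repeat protein, at Mrps16 (60 bp), at Mrps12 (344 bp), whose bacterial homologue shapes the decoding centre, and at Mrps30 (523 bp). Mrps34 had a peak of score 2 at 48 bp. No score within 50 kb of a small subunit gene exceeded 7.

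**Figure D3:**
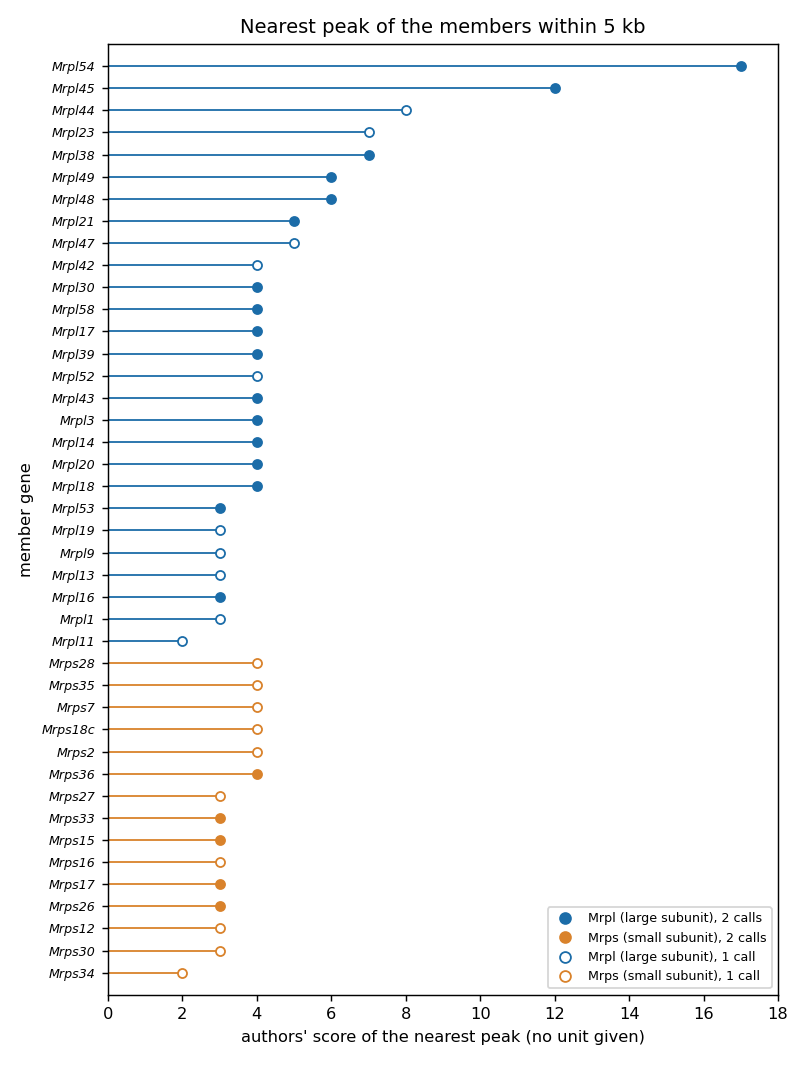
Points give the authors' score of the peak nearest to each of the 42 genes with a peak within 5 kb, filled for peaks of 2 calls and open for 1 call. Large subunit genes (blue) reach 17 and 12 at Mrpl54 and Mrpl45, while nearest peaks of small subunit genes (orange) score 2 to 4.

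The genes just inside and just outside the 5 kb window were few. Between 1 and 5 kb lay Mrpl38 (1192 bp, score 7, 2 calls), Mrpl18 (1341 bp, score 4, 2 calls), Mrps2 (2078 bp, score 4, 1 call) and Mrps36 (4919 bp, score 4, 2 calls). The peak at Mrps2 lies inside the annotated gene and 37 bp before its listed start, so it is a promoter peak by that measure. The peak at Mrpl18 is 355 bp before the listed start and 117 bp from Tcp1, a chaperonin gene. The peak counted for Mrps36 lies 79 bp from Cdk7, which encodes a cyclin-dependent kinase, and 13638 bp from the start of Mrps36. Just outside were Mrps23 (6.28 kb), Mrpl24 (7.50 kb) and Mrpl2 (9.69 kb). Within Mrps23 a single-call peak that scored 3 lies 7315 bp from the nearest end but 196 bp before the listed start.

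The 36 genes without a peak within 5 kb comprise 22 of the large and 14 of the small subunit. For 23 of them the nearest peak was 5 to 50 kb away, and for 13 it was farther, namely 7 large and 6 small subunit genes. The farthest were Mrpl37 (187 kb), Mrpl50 (167 kb) and Mrps6 (127 kb). Mrpl46 and Mrps11, neighbours separated by 41 bp, had their nearest peaks 113 and 103 kb away. Mrpl12, whose product also binds the mitochondrial RNA polymerase, had its nearest peak at 26.5 kb.

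Most of the higher scores within 50 kb lay nearer to other genes. A peak of score 101 lay 38.3 kb from Mrpl14 and 2702 bp from 1600014C23Rik (chr17:45736751-45736865), and one of score 10 lay 31.1 kb from Mrpl14. Peaks of score 42, 18 and 18, at 25.6 to 26.8 kb from Mrpl51, lay 146 to 1106 bp from Gapdh, a glycolytic gene. With Mrpl54 and Mrpl45, these are all the peaks of score 10 or more within 50 kb of the family. Together they are 7 of 142 peaks (4.93%), against 1.96% of peaks within 50 kb of other genes.

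Around gene starts the peaks were tightly placed. Strand and start were taken from the promoter table, so this description covers the matched genes. Of 39 pairs of a gene and a peak within 5 kb of either gene end, 31 (79.5%) had the peak centre within 250 bp of a listed start, and 23 (59.0%) within 100 bp. The corresponding shares for other protein-coding genes were 42.1% and 25.2% of 4888 pairs. Upstream of the start lay 29 centres and downstream 10, with a median position 49 bp before the start. In other genes 2386 lay upstream and 2498 downstream, with a median position 8 bp after the start. Large subunit genes (22 of 27 within 250 bp) and small subunit genes (9 of 12) had close shares. Within 1 kb of a listed start lay 37 of the 39 centres (94.9%), against 59.6% for other genes, so few of the family's peaks were at the 3′ end. Sets were closer with only the pairs within 1 kb of either gene end. Of these, 85.7% in the family and 61.8% in other genes had the centre within 250 bp of a start. Their median positions were 49 bp and 39 bp before the start.

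**Figure D4:**
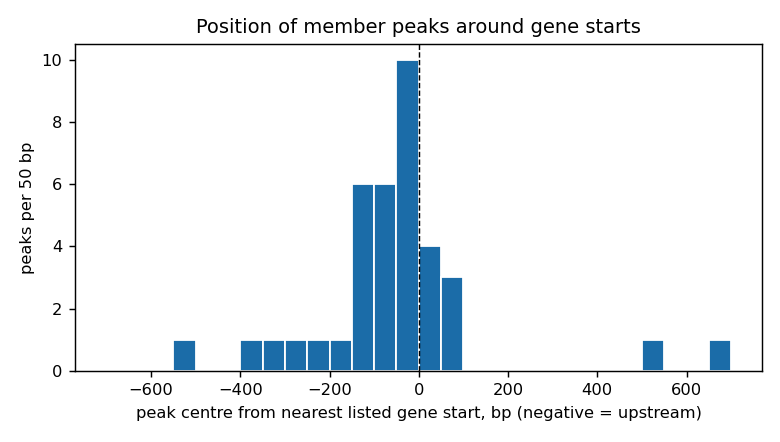
The histogram counts peaks near the matched genes in bins of 50 bp by the position of their centre relative to the nearest listed start, negative values being upstream. Most centres lie within 250 bp of the start, and the 2 farthest positions, at -3598 bp (Mrpl23) and 13638 bp (Mrps36), are outside the axis.

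Many of these peaks lie close to the end of a second gene, so that such a peak cannot be given to a single gene by position alone. Of the 42 peaks within 1 kb of the family, 18 (42.9%) were also within 1 kb of the end of another protein-coding gene, against 15.3% of the 3286 peaks near other genes. Some of the neighbours also serve mitochondria. The peaks of Mrpl47 lie 67 and 197 bp from Ndufb5, which encodes a subunit of respiratory complex I. The peak of Mrps12 is 208 bp from Sars2, the mitochondrial seryl-tRNA synthetase gene. The peak of Mrpl43 is 834 bp from Twnk, the helicase gene of mitochondrial DNA replication. That of Mrps27 is 62 bp from Ptcd2, a gene of mitochondrial RNA processing. Further shared peaks were those of Mrpl30 with Mitd1 (34 bp), Mrpl53 with Ccdc142 (43 bp), Mrpl44 with Wdfy1 (92 bp), Mrpl14 with Tmem63b (129 bp), Mrpl13 with Mtbp (12 bp), Mrps18c with Helq (4 bp), Mrps34 with Eme2 (15 bp), Mrps7 with Gga3 (449 bp) and Mrps16 with Cfap70 (616 bp). No peak within 5 kb was shared by 2 genes of the family.

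Close neighbours were more frequent in the family, but in the pooled family the genes with one did not have the higher share of peaks. Another protein-coding gene end lay within 1 kb for 44 of the 78 genes (56.4%) and for 24.6% of other genes. Within 5 kb, 22 of these 44 genes (50.0%) and 20 of the remaining 34 (58.8%, interval 40.7 to 75.4%) had a peak. The subunits went opposite ways: 14 of 30 large subunit genes with a neighbour (46.7%) and 13 of 19 without (68.4%) had a peak, against 8 of 14 (57.1%) and 7 of 15 (46.7%) in the small subunit. In other genes the shares were 34.7% with such a neighbour and 20.3% without. Cytosolic ribosomal protein genes stood at 50.0% with one, the same share as the family, and at 39.3% without. When each peak was given only to the gene with the nearest end, 31 of the 78 genes (39.7%) kept a peak within 5 kb, against 19.0% of other genes.

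In windows with a peak centre, promoters of the family held the HIF core about as often as those of other genes. ACGTG and GCGTG were searched on both strands of windows of 300 bases around listed starts, and matches may overlap each other. A gene with several listed starts has several windows, which can overlap, so the 75 family windows belong to 69 genes. At least 1 match was present in 50 of the 75 windows (66.7%), from 46 genes, against 49.3% of all 21262 windows of protein-coding genes. Windows of cytosolic ribosomal protein genes had a share like that of the family, 54 of 80 (67.5%). In the 30 family windows with a peak centre, which belong to 29 genes, 23 held a match (76.7%, interval 57.7 to 90.1%). The share was 76.8% of the 1777 such windows of other genes. Family windows without a peak centre held one in 27 of 45 cases (60.0%), against 46.8% of those of other genes. The match was within 50 bp of the peak centre in 14 of the 30 windows (46.7%), against 49.5% in other genes. In family windows with a peak of 2 calls, 13 of 17 held a match (76.5%), against 82.0% in other genes. It was within 50 bp of the centre in 9 of the 17 (52.9%), against 62.9%. These differences were not tested.

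The forms of the core were also counted apart. In the 17 family windows with a peak of 2 calls, 6 held ACGTG (35.3%, interval 14.2 to 61.7%) and 12 held GCGTG (70.6%, interval 44.0 to 89.7%). The corresponding shares in the 679 such windows of other genes were 56.7% and 64.1%. The full palindrome CACGTG, which contains ACGTG, was in 0 of the 17 windows (upper bound of the interval 19.5%) and in 16.1% of those of other genes. Each of these family intervals includes the share of other genes, and the differences were not tested. CACGTG was in 7 of all 75 family windows (9.33%), which belong to 5 genes, since 3 of them are overlapping windows of Mrpl2. The window at Mrps18c holds a peak centre, of 1 call, and the other windows with CACGTG hold none.

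Other short sequences were searched after the peaks had been seen, because promoters of mitochondrial genes are known for sites of the ETS family factor GABP and of NRF1. CCGGAA, the core bound by ETS factors, was present in 43 of the 75 family windows (57.3%, interval 45.4 to 68.7%), against 18.7% of all windows. It was about as frequent in family windows with a peak centre (19 of 30, 63.3%) as without one (24 of 45, 53.3%). In windows of other genes the shares were 38.9% with a peak centre and 16.7% without. Within 50 bp of the peak centre CCGGAA was found in 15 of the 30 family windows (50.0%), against 18.8% of those of other genes. Cytosolic ribosomal protein genes held it in 46.2% of their windows. CGCANGCG, the inner part of the NRF1 site, was in 20 family windows (26.7%, interval 17.1 to 38.1%). It was in 11.1% of all windows and in 18.8% of windows of cytosolic ribosomal protein genes. In windows with a peak centre the share of CGCANGCG was 12 of 30 (40.0%) in the family and 22.7% in other genes. It lay within 50 bp of the centre in 4 of the 30 (13.3%), against 9.06% of such windows of other genes. A match is a description of letters and not evidence that a factor was bound.

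The matches of CCGGAA closest to the centre of a peak of 2 calls are shown here as stretches of 30 bases, 5′ to 3′ on the strand of the gene, with CCGGAA or its reverse complement in capitals. The middle of the match is 1.50 bp from the centre at Mrpl43 (minus strand, chr19:45006481-45006510), 4.50 bp at Mrpl39 (minus strand, chr16:84735263-84735292), 17.5 bp at Mrpl53 (plus strand, chr6:83109081-83109110) and 21.5 bp at both Mrpl30 (plus strand, chr1:37890447-37890476) and Mrps33 (minus strand, chr6:39810972-39811001).
Mrpl43: ctcgcggtgactCCGGAAgcaaaactctcc
Mrpl39: cgggttccgcgtTTCCGGgggaagagggac
Mrpl53: cagtgctactccTTCCGGggtggaggtaac
Mrpl30: aaaaaacctttcCCGGAAccaaagaaccgt
Mrps33: gagtgagagtagTTCCGGgttgtccgccga

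Base composition also differed between some of these sets of windows. Family windows had a median of 21.0 CG dinucleotides, against 13.0 over all windows of protein-coding genes. Windows of cytosolic ribosomal protein genes also had a median of 21.0. Windows with a peak centre had a median of 23.5 in the family and 24.0 in other genes, and windows without one had 19.0 and 11.0. The part of composition in the counts of short sequences, each of which contains CG, was not tested.

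**Figure D5:**
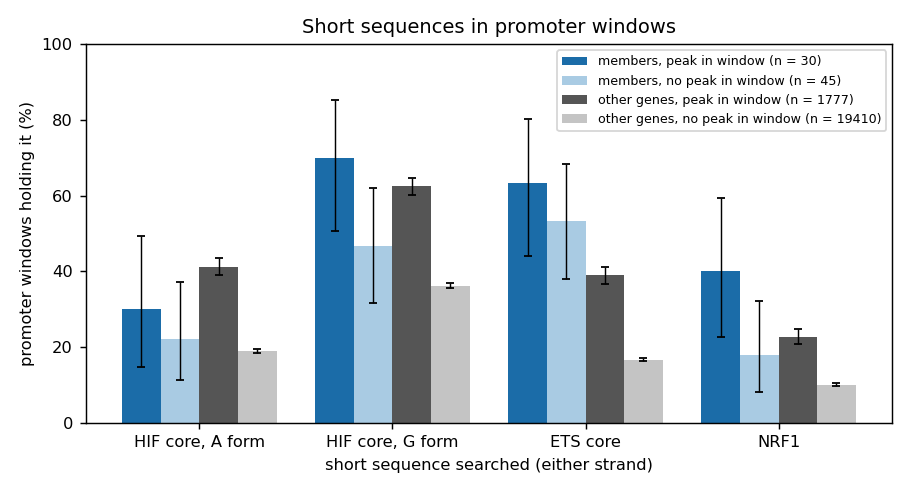
Bars give the percentage of promoter windows of 300 bases that hold ACGTG (HIF core, A form), GCGTG (HIF core, G form), CCGGAA (ETS core) or CGCANGCG (NRF1) on either strand, with exact 95% Clopper-Pearson intervals as error bars. The ETS core is present in 63.3% and 53.3% of family windows with and without a peak centre, against 38.9% and 16.7% of windows of other genes.

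Other genes of mitochondrial translation and gene expression were near peaks at a similar share. Over 5 lists with 55 genes in all, 28 (50.9%, interval 37.1 to 64.6%) had a peak within 5 kb, against the 23.9% given above. A peak of 2 calls was that near for 13 of the 55, against 7.65% of other genes. Shares of the lists without subunits of the ribosome ran from 30.0 to 57.1%. The pooled count also includes the 5 subunits of the mitochondrial ribosome that carry other names, and all 5 were near a peak. These were Ptcd3 (4 bp, score 4), Chchd1 (25 bp, score 4) and Dap3 (967 bp, score 5) with 2 calls, and Aurkaip1 (248 bp, score 4) and Gadd45gip1 (1079 bp, score 3) with 1 call. With them the count of ribosomal subunit genes near a peak was 47 of 83 (56.6%).

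Factors that build the ribosome and charge its tRNAs followed. Of 16 genes of ribosome assembly and ribosomal RNA modification, 8 (50.0%) were near a peak. Nearest were Ddx28 (15 bp, 2 calls), a helicase gene, Eral1 (35 bp, 2 calls), which encodes a chaperone of the small-subunit RNA, and Mterf4 (50 bp, 1 call). Of 17 mitochondrial aminoacyl-tRNA synthetase genes, 8 (47.1%) were near a peak, among them Lars2 (13 bp, 2 calls), Hars2 (23 bp, 1 call) and Rars2 (75 bp, 2 calls). All peaks named in these lists of assembly factors and synthetases scored 3 or 4.

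Translation factors and genes that maintain and express the mitochondrial genome formed the other lists. Of 10 translation factor genes, 3 (30.0%, interval 6.67 to 65.2%) were near a peak, a share close to the 23.9% of other protein-coding genes: Tufm, the elongation factor gene (92 bp, 1 call), its exchange factor gene Tsfm (114 bp, 1 call) and Mtif2, an initiation factor gene (1019 bp, 2 calls). Of 7 genes of transcription, DNA maintenance and RNA stability, 4 (57.1%) were near a peak, with Tfb2m (30 bp, 1 call), Lrpprc (97 bp, 2 calls) and Twnk (834 bp, 2 calls) nearest. Without Twnk and Polg, which serve the replication of mitochondrial DNA, the count was 2 of 5. The peak at Twnk is the one it shares with Mrpl43, and the peak at Sars2 is the one it shares with Mrps12, so these lists are not independent of the family.

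Cytosolic ribosomal protein genes were set beside the family as the most similar group. Of 88 such genes, 38 (43.2%, interval 32.7 to 54.2%) had a peak within 5 kb and 14 (15.9%, interval 8.98 to 25.2%) one of 2 calls. Of the peaks themselves, 23 of 47 within 5 kb of the mitochondrial family were of 2 calls (48.9%, interval 34.1 to 63.9%), against 13 of 46 near cytosolic ribosomal genes (28.3%, interval 16.0 to 43.5%). Over peaks within 5 kb of all genes outside the family the share was 27.4%. The median score was 4.00 near the mitochondrial family and 3.00 near each of the other groups. Within the family, peaks near large subunit genes had a median score of 4.00 and 18 of 31 were of 2 calls (58.1%). Peaks near small subunit genes had a median of 3.00 and 5 of 16 were of 2 calls (31.2%), values close to those of other genes. These differences were not tested. Chromatin access, gene activity and input levels at these promoters were not analysed here, and their part in the counts was not tested.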

How the data were processed

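The deposited file is a merged list of HIF1α peaks that the authors made from 2 pulldowns, each called against 1 input, per the file headers; Bowtie2, HOMER and mm10 are named in the submitters' processing notes without versions. The deposited score is a whole number whose scale the header does not give, so it was used only to describe and rank peaks within the list. The last number of each peak name was taken to count the merged calls. The calling threshold and the merging rule are not stated in the labels or headers used here.

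Gene positions came from a RefSeq table of GRCm38.p6. Mitochondrial and unplaced genes were left out, as were genes ending below 3 Mb on chromosomes other than Y. A gene was called near a peak when the centre lay within 5 kb of either end. Strand and starts came from the promoter table, which held an entry for 17491 of the 21775 genes. Shares have exact 95% intervals (scipy 1.17.1), and no test was made. The members and lists were chosen with earlier results of these data known. Every gene of the family within 5 kb of a peak was named, with the 3 nearest beyond it, the 3 farthest, and up to 3 genes of each other list; the 2 remaining subunits under other names, the pair Mrpl46 and Mrps11, and Mrpl12 were added after their values were seen. The distance search was checked on randomly placed peaks with a peak added at 200 genes, of which 200 were found. Alternatives covered the window, the score, the number of calls, the assignment of peaks and the background.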

Additional observations from a re-analysis of the deposited data

How the results depend on the processing

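The share of mitochondrial ribosomal protein genes near a peak was 53.8% at 5 kb and stayed within its interval with a 1 kb window, scores of at least 3, listed starts alone, peaks inside genes, any overlap of the peak, the added subunits, and either split by neighbours. It moved to 41.0% at 500 bp, 83.3% at 50 kb, 29.5% with peaks of 2 calls and 39.7% with each peak given to its nearest gene end. In the same settings other genes moved from 23.9% to 13.5%, 63.5%, 7.65% and 19.0%. Other genes also moved to 16.1% at 1 kb, 19.2% with scores of at least 3, 20.3% with listed starts alone, 32.6% with peaks inside genes, and 34.7% and 20.3% with and without a close neighbour. Large subunit genes moved to 85.7% at 50 kb and 36.7% with 2 calls, and small subunit genes to 79.3% and 17.2%. A wider window or fewer peaks changes such shares by construction. Leaving out a replicate was not run, since the merged list does not mark the pulldown of a call. No paired analysis was possible because the list has no values per library. Depth is unknown, so a gene without a peak cannot be told from a site below the calling threshold.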
